A study of Homo sapiens with 4 samples.

Results

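The RASGRP and RASGRF genes encode guanine nucleotide exchange factors that load RAS and RAP proteins with GTP. The 6 genes RASGRP1, RASGRP2, RASGRP3, RASGRP4, RASGRF1 and RASGRF2 were read from a gene table of 41507 genes, and their 37 transcripts from a transcript table of 67765. They were chosen by name, with their gene-level response to JQ1 in these libraries already known, so the JQ1 to DMSO ratios below are descriptions and carry no test. RNA sequencing was performed on SU-DHL-5 and Toledo, both human diffuse large B-cell lymphoma lines. Each line was treated with 1 µM JQ1, an inhibitor of the BET bromodomain proteins, or with the solvent DMSO, and the labels give 6 h of treatment. Each of the 4 conditions was 1 sample with 2 libraries, whose origin the labels do not give, so n = 1 per condition, no p-value is given, and the spread between libraries of a sample may be technical only. The DMSO libraries are the background for each value. The question addressed here was which isoforms carried the change in each line.

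RASGRP proteins such as RASGRP1 and RASGRP3 are recruited to membranes by diacylglycerol, which binds their C1 domain. They then act on RAS or RAP through a catalytic CDC25 domain. In B cells the diacylglycerol comes from phospholipase C-gamma after engagement of the B-cell receptor, and RASGRP1 and RASGRP3 are the members best known in lymphocytes. RASGRP2, also called CalDAG-GEFI, acts mainly on RAP1 and is best known in platelets, whereas RASGRP4 is best known in mast cells. RASGRF1 and RASGRF2 respond to calcium and are best known in neurons.
On GRCh38, RASGRP1 and RASGRF1 lie on chromosome 15, the latter at 78959947 to 79090873. RASGRP2 lies at 64726911 to 64745456 on chromosome 11 and RASGRP3 at 33436349 to 33564731 on chromosome 2. RASGRP4 lies at 38409058 to 38426305 on chromosome 19 and RASGRF2 at 80960672 to 81230162 on chromosome 5.

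The deposited isoforms often differed by little sequence, and the stretches that set them apart are shown first. RASGRP1 had 3 transcripts with the same ends (GRCh38, chromosome 15, 38488101 to 38564806, minus strand). RASGRP1_3, of 5025 bases, matched the exons of GENCODE v29 RASGRP1-201. RASGRP1_1 was 105 bases shorter, the length of exon 11 alone among the 17 exons, and RASGRP1_2 was 153 bases shorter, the length of exon 15 alone. Exon 11 (38503272 to 38503376) spans codons 442 to 476 of 797, and exon 15 (38498794 to 38498946) spans codons 574 to 625 and encodes the end of the diacylglycerol-binding C1 domain. Both are coding and keep the reading frame. They are given 5′ to 3′ from GENCODE v29, with the exon in capitals and the adjoining exons in lower case.
RASGRP1 exon 11, absent from RASGRP1_1: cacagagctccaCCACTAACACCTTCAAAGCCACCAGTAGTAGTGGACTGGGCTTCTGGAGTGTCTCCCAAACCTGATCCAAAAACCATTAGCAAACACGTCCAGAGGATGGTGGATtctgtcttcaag
RASGRP1 exon 15, absent from RASGRP1_2: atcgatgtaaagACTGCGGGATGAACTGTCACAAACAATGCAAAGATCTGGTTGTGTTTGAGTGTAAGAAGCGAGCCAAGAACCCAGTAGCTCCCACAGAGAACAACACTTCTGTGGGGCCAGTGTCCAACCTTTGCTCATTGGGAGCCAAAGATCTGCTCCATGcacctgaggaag

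RASGRP3_2 and RASGRP3_4, on chromosome 2, plus strand, differed even less. RASGRP3_4 began 26 bases later, at 33476254 rather than 33476228. RASGRP3_2 was 3 bases shorter than GENCODE RASGRP3-202 with the same ends, which is the difference made by an alternative acceptor at exon 12 of 18 (33539094 to 33539096). The join of exons 11 and 12 is shown with those 3 bases in capitals, because no other difference inside the coding sequence followed from the lengths. These structures were inferred from deposited ends and recovered lengths, as the tables list no exons.
RASGRP3 exon 11 to 12 join with the 3 bases, as in RASGRP3-202: gaaattctaaatcgCAGcctacctccccta
RASGRP3 exon 11 to 12 join without them, as in RASGRP3-203: gaaattctaaatcgcctacctccccta

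The primer pairs designed by the study for RASGRP1 and RASGRF1 are shown because they sample different parts of the isoform mixture. The RASGRP1 pair gives a product of 129 bases at 38501166 to 38502318, within exons 12 and 13, which lie in all 3 RASGRP1 isoforms. The RASGRF1 pair gives a product of 79 bases at 79027817 to 79031435 on chromosome 15. It lies inside the extent of 6 of the 7 RASGRF1 transcripts with reads, and RASGRF1_5 is the exception.
RASGRP1 forward primer: aagacagggaaggcctcatc
RASGRP1 reverse primer: aagtgggcttcaggtaggtg
RASGRF1 forward primer: ggactacgccaagtccaaac
RASGRF1 reverse primer: tttccggatgttctccgtct

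The values were RPKM, a read count divided by feature length and by library depth. A transcript's RPKM uses its own length, so the transcripts of a gene can sum to more than the gene's RPKM. Depth was recovered from the RPKM steps of single-exon genes and lay between 14617533 and 17679836 mapped reads per library, with 95.04% to 97.4% of those genes' values within 0.1 of a whole read. In each of the 5 members with reads, the transcript reads recovered this way summed to the gene's reads in all 8 libraries with 1 solution. The intervals below are exact 95% binomial intervals of the JQ1 to DMSO read ratio and cover counting error only, not the error of assigning a read to an isoform. Fold and share limits given where the JQ1 sample had 0 reads cover counting error only as well. HEXIM1, a gene known to respond to BET inhibitors, went from a mean of 4.12 RPKM with DMSO to 22.7 with JQ1 in SU-DHL-5, and in Toledo from 3.99 to 24.2. MYC, another gene known to respond in many lines, had log2 ratios of −0.29 and 0.03. The 5 B-cell markers read here (MS4A1, CD79A, CD79B, PAX5 and BCL6) were at or above 1 RPKM in every sample, with sums of 839 to 977 RPKM in the DMSO libraries and 595 to 663 in the JQ1 libraries. The defining markers of mast cells (TPSAB1, CPA3 and MS4A2) were at 0 in all libraries. The platelet markers PPBP, PF4 and ITGA2B summed to at most 0.0553 RPKM. The T-cell markers CD3D, CD3E and CD2 summed to 0.934 to 1.09 RPKM with DMSO and 0.0452 to 0.120 with JQ1 in SU-DHL-5, and to at most 0.0831 in Toledo. The monocyte markers CD14, LYZ and CSF1R summed to 1.25 to 1.29 RPKM with DMSO and 0.192 to 0.339 with JQ1 in SU-DHL-5, and the neuronal markers SNAP25, SYT1 and RBFOX3, at 0 in SU-DHL-5, to 0.354 to 0.591 and 0.0492 to 0.0657 in Toledo. In Toledo the monocyte sums overlapped, at 0.106 to 0.298 RPKM with DMSO and 0.103 to 0.164 with JQ1. The T-cell and monocyte sums in SU-DHL-5 and the neuronal sums in Toledo, like the B-cell sums, were lower with JQ1. The part of these cell types in the results was not tested.

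At the gene level RASGRP3 was by far the most abundant member in SU-DHL-5, and RASGRP2 was the most abundant in Toledo with DMSO. RASGRP3 had 29.8 and 31.8 RPKM in the DMSO libraries of SU-DHL-5 and 13.99 and 14.03 in the JQ1 libraries. The Toledo libraries had 3.78 and 4.09 RPKM with DMSO and 2.29 and 1.84 with JQ1. In both lines the JQ1 libraries therefore lay below the DMSO libraries, and the log2 ratio, taken throughout after adding 0.1 RPKM, was −1.13 for SU-DHL-5 and −0.90 for Toledo. The Toledo ratio was −0.70 in library 1 alone and −1.11 in library 2 alone. In reads, RASGRP3 had a log2 ratio of −1.14 (interval −1.21 to −1.07) in the first line and −0.93 (interval −1.11 to −0.74) in the second.

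RASGRP1 showed nearly the same ratio in both lines from different starting levels. It had 4.49 and 4.97 RPKM with DMSO and 1.31 and 1.29 with JQ1 in SU-DHL-5. It had 1.40 and 2.02 RPKM with DMSO and 0.428 and 0.407 with JQ1 in Toledo. The groups did not overlap in either line, and the log2 read ratios were −1.86 (interval −2.09 to −1.64) and −2.02 (interval −2.42 to −1.64).
RASGRP2 had 0.871 and 0.908 RPKM with DMSO in SU-DHL-5, against 0.0753 and 0.0170 with JQ1, values that rest on 5 reads and 1 read. The Toledo libraries had 6.14 and 6.28 RPKM with DMSO and 1.05 and 0.970 with JQ1. The log2 read ratio of RASGRP2 was −4.21 in SU-DHL-5 (interval −5.69 to −3.05) and −2.62 in Toledo (interval −2.89 to −2.35). The difference between the lines was not tested.

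RASGRF1 and RASGRF2 were seen mainly in SU-DHL-5. RASGRF1 had 3.08 and 2.72 RPKM with DMSO and 0.301 and 0.238 with JQ1 in that line, so that 9.28% of its DMSO level was left (log2 read ratio −3.42, interval −3.80 to −3.06). In Toledo it had 7 and 5 reads with DMSO and 0 in both JQ1 libraries. That is 3.82-fold lower when 3 reads are allowed to the JQ1 sample, and the log2 interval ended at −1.41. RASGRF2 had 0.215 and 0.227 RPKM with DMSO and 0.117 and 0.124 with JQ1 in SU-DHL-5 (log2 ratio −0.54). These values rest on 60 reads against 31, with a log2 read ratio of −0.88 (interval −1.56 to −0.23). It had 1 read in 1 library of each Toledo sample, so no ratio is given. RASGRP4 was at 0 in all 8 libraries. RASGRF2 overlaps CKMT2-AS1 and RASGRP4 overlaps FAM98C, each on the opposite strand. The kit was stranded, but whether the counting used strand is not given in the sources used here. In such bulk samples, fewer cells expressing a gene and less RNA per cell cannot be told apart.

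**Figure D1:**
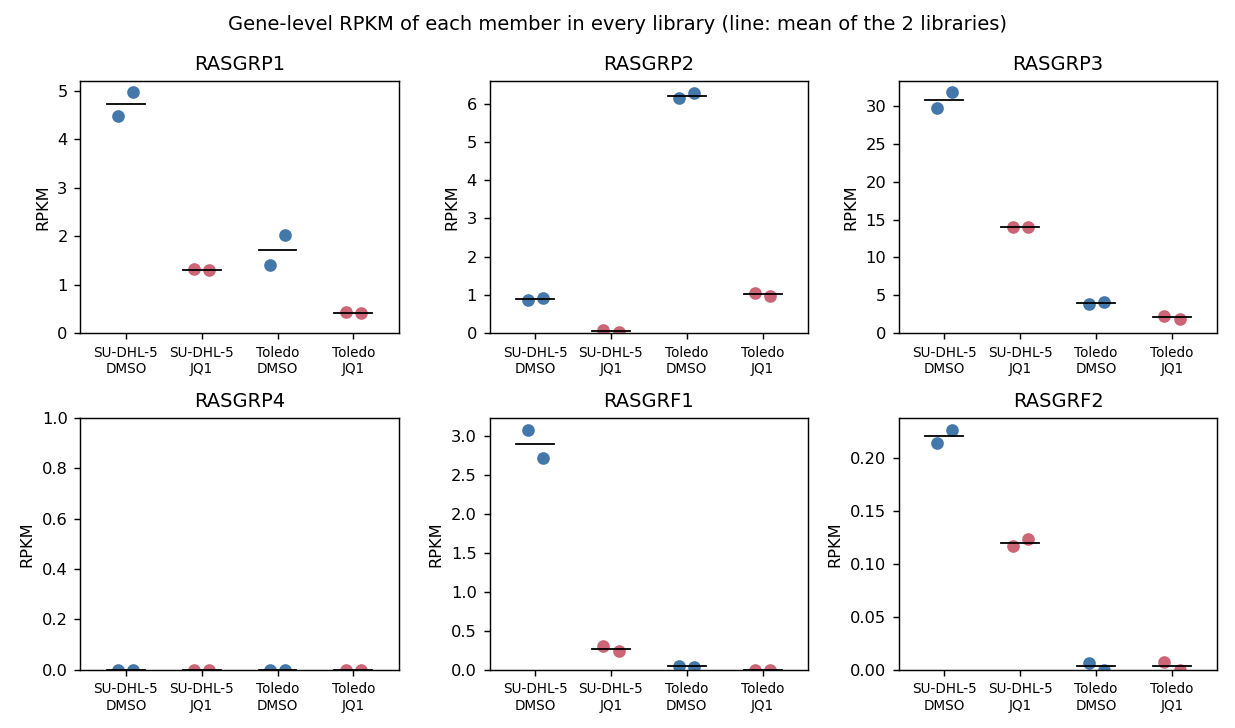
Gene-level RPKM (y axis, linear, a separate scale per gene) of the 6 members in the SU-DHL-5 and Toledo samples (x axis); points are the 2 libraries of a sample (blue DMSO, red JQ1) and lines are their means. RASGRP3 reaches 31.8 RPKM in SU-DHL-5 while RASGRP2 reaches 6.28 in Toledo, JQ1 points lie below DMSO points for RASGRP1, RASGRP2 and RASGRP3 in both lines, and RASGRP4 stays at 0.

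A gene or transcript was counted as lower with JQ1 when its log2 ratio was under −1 and each JQ1 library had less than either DMSO library, among features with a mean of at least 0.1 RPKM in either sample. In SU-DHL-5, 5 of the 6 members passed the level filter and 4 were lower (RASGRP1, RASGRP2, RASGRP3 and RASGRF1), where 8.72% of all 11063 genes were. In Toledo, 3 passed and 2 were lower (RASGRP1 and RASGRP2), against 11.1% of 11678 genes. No member was higher, where 2.12% of genes were higher in the first line and 2.36% in the second. The members were selected on this same contrast, so nothing is read from these shares. Over all genes that passed the filter, the median log2 ratio was −0.0081 for SU-DHL-5 and −0.10 for Toledo.

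Of the 37 transcripts, 25 had reads and 12 were at 0 in all libraries, among them the 7 of RASGRP4. In SU-DHL-5, 18 of the 37 passed the level filter and 12 were lower with JQ1, where 12.1% of 30847 transcripts in the table were lower and 7.14% higher. In Toledo, 13 passed and 7 were lower, where 14.6% of 31984 were lower and 6.53% higher. No member transcript was higher in either line. The transcripts lower in both lines were RASGRP1_1, RASGRP1_3, RASGRP2_3, RASGRP2_4, RASGRP2_6 and RASGRP2_10. Those counted as lower in SU-DHL-5 only were RASGRP3_3, RASGRP3_4, RASGRF1_3, RASGRF1_5, RASGRF1_6 and RASGRF1_7. The RASGRF1 transcripts among them were below the level filter in Toledo and could not be counted there. RASGRP3_4 was lower in Toledo without overlap of the libraries, but its log2 ratio of −0.84 was short of the limit. RASGRP3_2 was counted as lower in Toledo only, and its libraries overlapped in SU-DHL-5. No difference between the lines was tested.

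RASGRP1_3, the isoform with all 17 exons, carried most of the fall of RASGRP1 in SU-DHL-5. It had 344 and 339 reads in the DMSO libraries and 87 and 66 with JQ1, a log2 ratio of −1.99, and it accounted for 93.1% of the fall in summed transcript RPKM. By library this share was 105% in library 1, where the other isoforms together rose, and 83.3% in library 2. The Toledo libraries had 94 and 60 reads with DMSO and 15 and 33 with JQ1, a log2 ratio of −1.33, and there RASGRP1_3 accounted for 46.0% of the fall. That Toledo share was 90.4% in library 1 and 19.9% in library 2, so the libraries did not give the same split. The Toledo log2 ratio was −2.03 in library 1 alone and −0.72 in library 2 alone, and with library 2 alone RASGRP1_3 would not be counted as lower.

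RASGRP1_1, without exon 11, was the RASGRP1 isoform whose reads were at 0 with JQ1 in both lines. It had 10 and 30 reads with DMSO and 0 and 0 with JQ1 in SU-DHL-5. This is 12.7-fold lower with 3 reads allowed to the JQ1 sample, and the interval of the log2 read ratio ended at −3.30. It had 30 and 76 reads with DMSO and 0 and 0 with JQ1 in Toledo, 33.8-fold lower on the same terms, with the interval ending at −4.75. Its share of the gene's RPKM in the Toledo DMSO libraries was 24.6% and 46.3%. With JQ1, 0 of 68 RASGRP1 reads in Toledo allows a share of up to 5.28%, and 0 of 204 in SU-DHL-5 a share of up to 1.79%.

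RASGRP1_2, without exon 15, did not follow the other 2. In SU-DHL-5 it had 0 and 55 reads with DMSO and 22 and 29 with JQ1, so the groups overlapped and the log2 read ratio was −0.04 (interval −0.62 to 0.54). In Toledo it had 0 and 29 reads with DMSO and 20 and 0 with JQ1, which also overlapped. Its share of RASGRP1 reads in SU-DHL-5 was 7.07% with DMSO (interval 5.37% to 9.10%) and 25% with JQ1 (interval 19.2% to 31.5%), but its share of RPKM ran from 0% to 13.3% between the DMSO libraries alone. The isoforms that keep exon 15 gave, together, 354 and 369 reads with DMSO and 87 and 66 with JQ1 in SU-DHL-5, and 124 and 136 against 15 and 33 in Toledo. Their pooled log2 read ratios were −2.17 (interval −2.43 to −1.92) and −2.37 (interval −2.85 to −1.92), and this pooling was chosen after the values were seen.

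**Figure D2:**
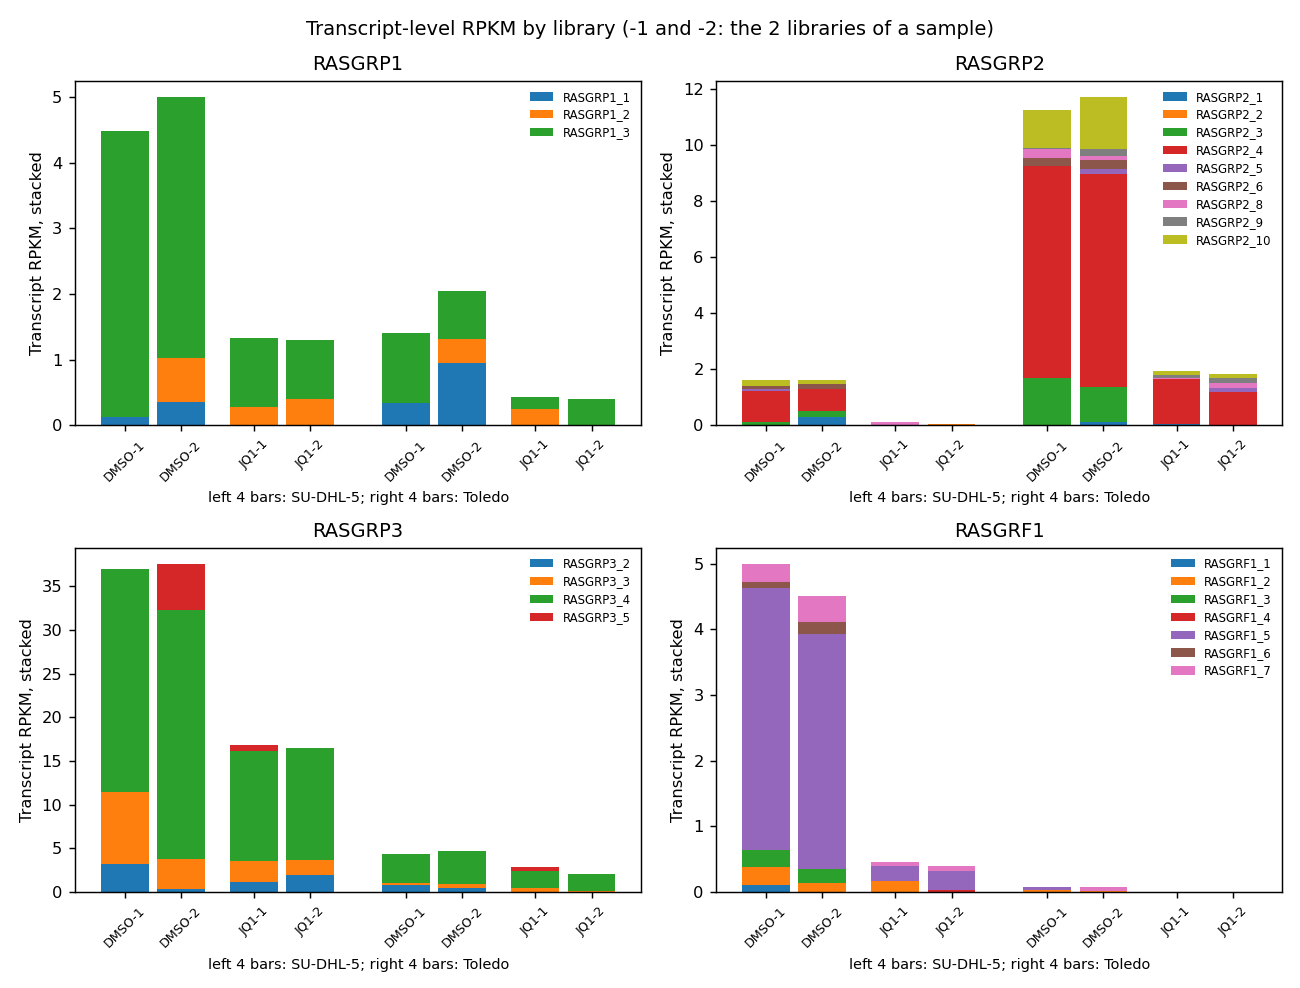
Transcript RPKM (y axis, linear, stacked by isoform) in each library (x axis, 4 SU-DHL-5 bars at left and 4 Toledo bars at right) for RASGRP1, RASGRP2, RASGRP3 and RASGRF1; colours are the deposited transcripts with reads. RASGRP3_5 appears in DMSO library 2 of SU-DHL-5 with 390 reads and not in library 1, and RASGRF1_5 makes up most of RASGRF1 in both SU-DHL-5 DMSO libraries.

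RASGRP3_4 was the leading isoform of RASGRP3 in every library. It had 1917 and 2308 reads with DMSO and 990 and 894 with JQ1 in SU-DHL-5 (log2 ratio −1.08), and carried 69.3% of the gene's fall. The Toledo counts were 275 and 300 reads with DMSO and 147 and 155 with JQ1, a log2 ratio of −0.84, and there the isoform carried 77.7%. Taken by library, its shares were 64.3% and 74.1% for SU-DHL-5 and 91.3% and 70.0% for Toledo. Its share of the gene's RPKM with DMSO and with JQ1 was 72.4% and 76.2% in the first line, and 78.7% and 79.5% in the second.

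RASGRP3_2, with its 26 bases more at the 5′ end, fell to 0 reads in one line and overlapped between treatments in the other, without a test of that difference. It had 69 and 37 reads with DMSO and 0 and 0 with JQ1 in Toledo. This is 33.8-fold lower with 3 reads allowed to the JQ1 sample, and the interval of the log2 read ratio ended at −4.75. Reads moved between RASGRP3_2 and the nearly identical RASGRP3_4 are not covered by these values. In SU-DHL-5 it had 245 and 24 reads with DMSO and 86 and 133 with JQ1, so the DMSO libraries enclosed the JQ1 libraries. Added together, RASGRP3_2 and RASGRP3_4 gave far closer libraries, 2162 and 2332 reads against 1076 and 1027 in SU-DHL-5, and 344 and 337 against 147 and 155 in Toledo. The pooled log2 read ratio was −1.02 (interval −1.10 to −0.95) in SU-DHL-5 and −1.11 (interval −1.31 to −0.91) in Toledo, also a pooling chosen after the values were seen.

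RASGRP3_3, which ends early at 33558737, had 323 and 150 reads with DMSO and 103 and 64 with JQ1 in SU-DHL-5 (log2 ratio −1.43). In library 2 alone the ratio was −0.97, which is short of the limit. In Toledo it had 11 and 16 reads with DMSO and 20 and 3 with JQ1, and the groups overlapped. RASGRP3_5 begins at 33513875, downstream of the start of the other isoforms with reads. It had 0 and 390 reads with DMSO and 49 and 0 with JQ1 in SU-DHL-5, and 0 and 0 against 31 and 0 in Toledo. It held under 10% of the gene's RPKM in every sample and is named here because of this spread, after its values were seen. RASGRP3_1, from the most distant start at 33436349, was at 0 throughout.

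RASGRP2_4, which matches GENCODE RASGRP2-207, led RASGRP2 in the DMSO libraries of both lines. In Toledo it had 301 and 277 reads with DMSO and 58 and 43 with JQ1, a log2 ratio of −2.37, and carried 64.6% of the gene's fall, with 64.5% in library 1 and 64.8% in library 2. In SU-DHL-5 it had 39 and 30 reads with DMSO and 1 and 0 with JQ1, a log2 ratio of −3.21, and carried 60.9%. The SU-DHL-5 share was 73.5% in library 1 and 49.2% in library 2, so the libraries differed more there than in Toledo.

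RASGRP2_3, as inferred from its ends and length, has the exons of RASGRP2_4 with 1 further 5′ exon of 150 bases and a start further out. It had 72 and 48 reads with DMSO and 0 and 0 with JQ1 in Toledo. This is 38.2-fold lower with 3 reads allowed, and the interval of the log2 read ratio ended at −4.94. In SU-DHL-5 it had 5 and 9 against 0 and 0. The 0 of 132 RASGRP2 reads in Toledo with JQ1 allows it a share of up to 2.76%, against 14.2% of the reads with DMSO. RASGRP2_10, which covers only the 5′ part of the gene (64740421 to 64744174), had 39 and 49 reads with DMSO and 4 and 3 with JQ1 in Toledo, a log2 ratio of −2.87.
All RASGRP2 transcripts other than RASGRP2_4 gave together 136 and 133 reads with DMSO and 11 and 20 with JQ1 in Toledo. Their log2 read ratio was −3.05 (interval −3.64 to −2.51), beside −2.45 (interval −2.77 to −2.14) for RASGRP2_4, and these intervals overlap. RASGRP2_8 had 13 and 5 reads with DMSO and 2 and 7 with JQ1 in Toledo, and 0 and 0 against 4 and 0 in SU-DHL-5. RASGRP2_6, which matches a GENCODE transcript annotated as a target of nonsense-mediated decay, had 11 and 12 reads with DMSO and 0 and 0 with JQ1 in Toledo, and 4 and 7 against 0 and 0 in SU-DHL-5. RASGRP2_2 had 1 read in all. RASGRP2_1, RASGRP2_5 and RASGRP2_9 held 0 to 12 reads per library, and RASGRP2_7 was at 0.

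RASGRF1_5, the short form, carried most of the fall of RASGRF1 in SU-DHL-5. It begins at 79005660, 85.2 kb downstream of the 5′ end of the long forms. It matches GENCODE RASGRF1-201 apart from its outer ends, with 1995 of its 4840 bases beyond the 3′ end of RASGRF1-201. That transcript's coding sequence has 489 codons against 1273 in RASGRF1-202, a long form. The short form is known to keep the catalytic domain and to lack the Dbl homology part of the long protein. It had 303 and 294 reads with DMSO and 19 and 20 with JQ1, a log2 ratio of −3.43, and accounted for 81.5% of the fall, with 82.7% in library 1 and 80.2% in library 2. Its share of RASGRF1 reads was 78.3% with DMSO (interval 75.2% to 81.2%) and 57.4% with JQ1 (interval 44.8% to 69.3%), although by RPKM the JQ1 libraries differed, at 51.8% and 70.6%.

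The 6 forms that begin at the far 5′ end, called long here, gave together 87 and 78 reads with DMSO and 21 and 8 with JQ1. The name refers to their start and not to their length. RASGRF1_6 and RASGRF1_7 end before the 3′ end of the others, at 78978482 and 78978955. With 4490 and 4021 bases they are shorter than RASGRF1_5, with 4840. The 6 forms had a log2 read ratio of −2.44 (interval −3.06 to −1.86), beside −3.87 (interval −4.37 to −3.40) for the short form. These intervals do not overlap, but they cover counting error only, and the difference between the forms was not tested. The short form held 77.7% and 79.0% of RASGRF1 reads in the DMSO libraries and 47.5% and 71.4% in the JQ1 libraries. In the DMSO libraries the 165 long-form reads came from transcripts whose extent includes the RASGRF1 primer product shown above, and the 597 short-form reads from one that lies outside it. This pooling too was chosen after the values were seen. Among the long forms, RASGRF1_3 went from 25 and 22 reads to 0 and 0, RASGRF1_6 from 7 and 14 to 0 and 0, and RASGRF1_7 from 17 and 27 to 4 and 5. RASGRF1_2 had 27 and 15 reads with DMSO and 17 and 0 with JQ1, and its groups overlapped. RASGRF1_1 had 11 reads in 1 DMSO library and RASGRF1_4 had 3 in 1 JQ1 library. The 12 Toledo reads with DMSO were split among RASGRF1_2, RASGRF1_5 and RASGRF1_7.

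**Figure D3:**
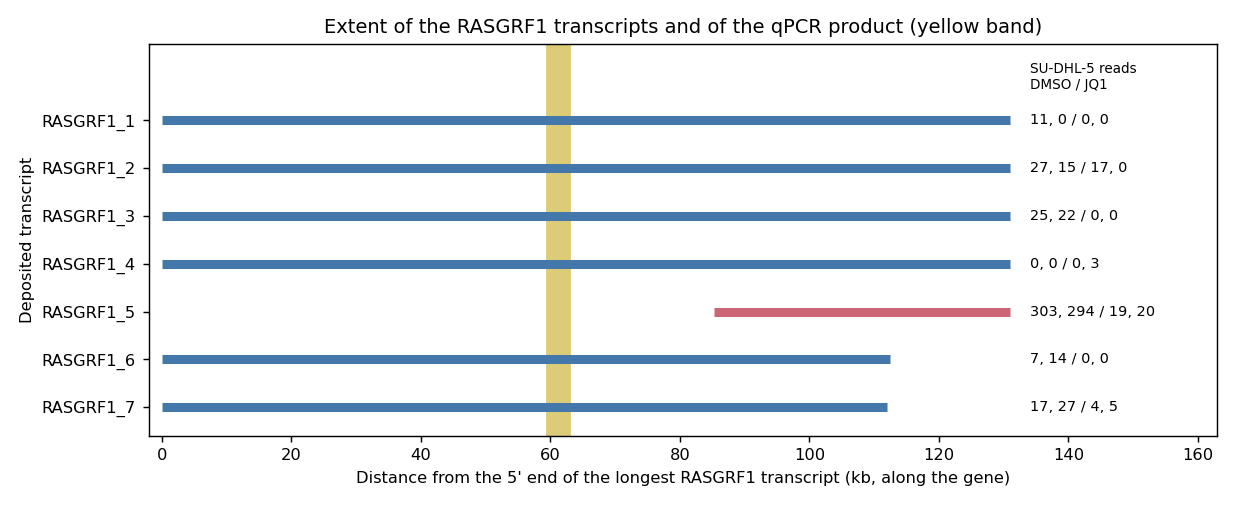
Extent of each deposited RASGRF1 transcript with reads (y axis) against distance along the gene from the 5′ end of the longest transcript (x axis, kb), with SU-DHL-5 reads in the 2 DMSO and the 2 JQ1 libraries at right; the yellow band is the genomic span of the qPCR product. The short form RASGRF1_5 (red), with 303 and 294 DMSO reads, starts at 85.2 kb and lies outside the band, which crosses the 6 other transcripts (blue).

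RASGRF2_2 held all RASGRF2 reads in SU-DHL-5, 28 and 32 in the DMSO libraries against 16 and 15 in the JQ1 libraries. In Toledo RASGRF2_2 had 1 read with JQ1 and RASGRF2_4 had 1 with DMSO, and the 3 other RASGRF2 transcripts were at 0. With all its SU-DHL-5 reads on 1 transcript, RASGRF2 had no isoform split to compare between the libraries of that line.

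**Figure D4:**
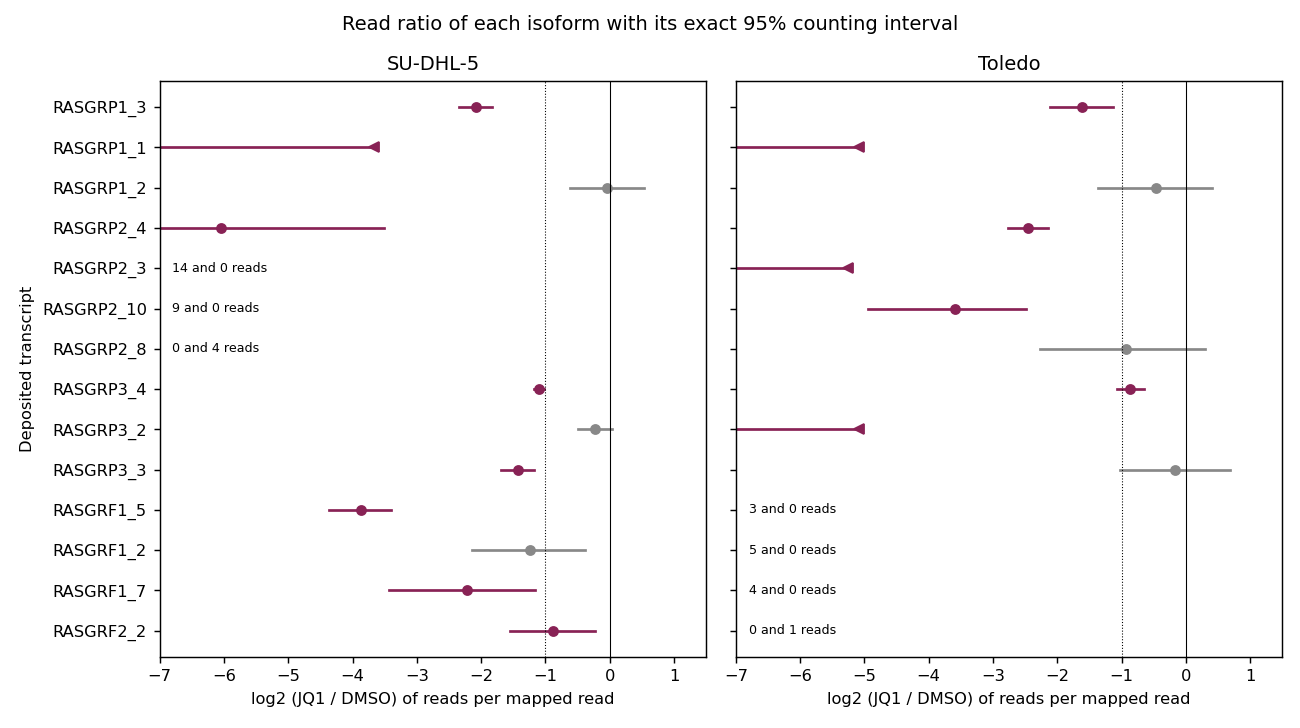
The log2 ratio of reads per mapped read, JQ1 over DMSO (x axis), for 14 isoforms (y axis) in each line; points are ratios, bars are exact 95% counting intervals, arrowheads are the ratio with 3 reads allowed where JQ1 had 0, and isoforms with under 20 reads are given in words. Purple marks isoforms whose JQ1 libraries both lay below both DMSO libraries and grey marks overlap, as for RASGRP1_2 in both lines and RASGRP3_2 in SU-DHL-5.

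The split of a gene's reads among isoforms was less reproducible between libraries of 1 sample than its total. Between the DMSO libraries, no member gene differed by over 2-fold in either line, where 0.905% of all genes did in the first line and 0.903% in the second. In contrast, 6 of 18 member transcripts differed by over 2-fold in SU-DHL-5, beside 25.2% of all transcripts, and 3 of 12 did in Toledo, beside 25.4%. The members were thus near the background of the whole table in this respect. In SU-DHL-5 they were RASGRP1_1, RASGRP1_2, RASGRP2_1, RASGRP3_2, RASGRP3_3 and RASGRP3_5, and in Toledo RASGRP1_1, RASGRP1_2 and RASGRP2_9.

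The shift in isoform shares with JQ1 was measured against that spread, as the percentage of the summed RPKM that would have to move between isoforms to turn one library's split into another's. For RASGRP3 in SU-DHL-5 it was 20.8% between the DMSO libraries and 9.70% to 14.1% between DMSO and JQ1 libraries, with 8.26% between the JQ1 libraries. The change with treatment was thus smaller than that between the DMSO libraries and larger than that between the JQ1 libraries. For RASGRP1 it was 17.6% between DMSO libraries and 7.38% to 31.2% across treatment in SU-DHL-5, and 39.6% and 24.6% to 64.2% in Toledo. These ranges include distances below the DMSO spread.
RASGRP2 in Toledo gave 8.80% between the DMSO libraries, 20.04% between the JQ1 libraries and 21.8% to 25.2% across treatment. It was the only one of the 7 pairs of gene and line, among genes with several isoforms and reads in every library, in which each distance across treatment exceeded those within both samples. RASGRF1 in SU-DHL-5 gave 5.47% between the DMSO libraries and 20.6% to 37.4% across treatment, but 35.1% between the JQ1 libraries, which had 40 and 28 reads. RASGRP2 in SU-DHL-5 gave 27.9% between the DMSO libraries and 79.7% to 100% across treatment, but also 100% between the JQ1 libraries, with only 6 reads left in the JQ1 sample. RASGRP3 in Toledo gave 8.81% between the DMSO libraries, 29.4% between the JQ1 libraries and 14.8% to 27.2% across treatment.
A further difference between libraries concerned feature length. In Toledo DMSO, the median log2 ratio of library 2 to library 1 was 0.17 for genes of 4 to 6 kb and −0.09 for genes under 2 kb. Its part in the isoform splits was not tested.

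Per length, the summed RPKM of the 6 genes was 39.5 with DMSO and 15.8 with JQ1 in SU-DHL-5, so that 39.9% was left. In Toledo it was 11.9 and 3.50, so that 29.4% was left. RASGRP3 made up 77.9% of the SU-DHL-5 sum with DMSO and 89.0% with JQ1. In Toledo RASGRP2 made up 52.2% of the sum with DMSO and 28.9% with JQ1, while RASGRP3 went from 33.0% to 59.0% and took the first place. With DMSO, RASGRP3 was 7.83-fold and RASGRP1 2.77-fold higher in SU-DHL-5 than in Toledo, and RASGRP2 was 6.98-fold higher in Toledo. These line differences exceeded the difference between the libraries of each sample for all 3 genes, and there was 1 sample of each line.

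The genes that supply or receive the signal were read beside the members, from a list of 35. In SU-DHL-5, 32 were at or above the level filter, 5 were lower and 1 higher with JQ1, beside 8.72% and 2.12% of all genes. In Toledo, 31 were, with 3 lower and 0 higher, beside 11.1% and 2.36%, so the Toledo count was near the background. The list had a median log2 ratio of 0.11 in each line. Most of the list, including the 7 RAS and RAP genes that passed the filter, stayed between the 0.5-fold and 2-fold limits.
The genes past a limit in both lines were BLNK, PRKCH and MAPK3, all lower. BLNK, the adaptor that brings phospholipase C-gamma to the B-cell receptor, had 57.5 and 58.1 RPKM with DMSO and 20.9 and 21.3 with JQ1 in SU-DHL-5, and 57.1 and 63.7 against 16.8 and 14.99 in Toledo. MAPK3, which encodes ERK1, had 21.6 and 24.1 RPKM with DMSO and 7.09 and 6.33 with JQ1 in SU-DHL-5, and 23.2 and 21.8 against 4.39 and 5.001 in Toledo. Both genes were lower with JQ1 in both lines without overlap.
PRKCH, a diacylglycerol-responsive protein kinase C, had log2 ratios of −1.89 and −1.51 from DMSO levels of 0.738 and 0.286 RPKM. The remaining genes past a limit did so in SU-DHL-5 and are named after their values were seen. They were BTK, the kinase that activates phospholipase C-gamma (log2 ratio −1.26, and −0.98 in Toledo), and the diacylglycerol kinases DGKA (−1.37, and −0.93 in Toledo) and DGKQ (1.30, and below the level filter in Toledo).

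**Figure D5:**
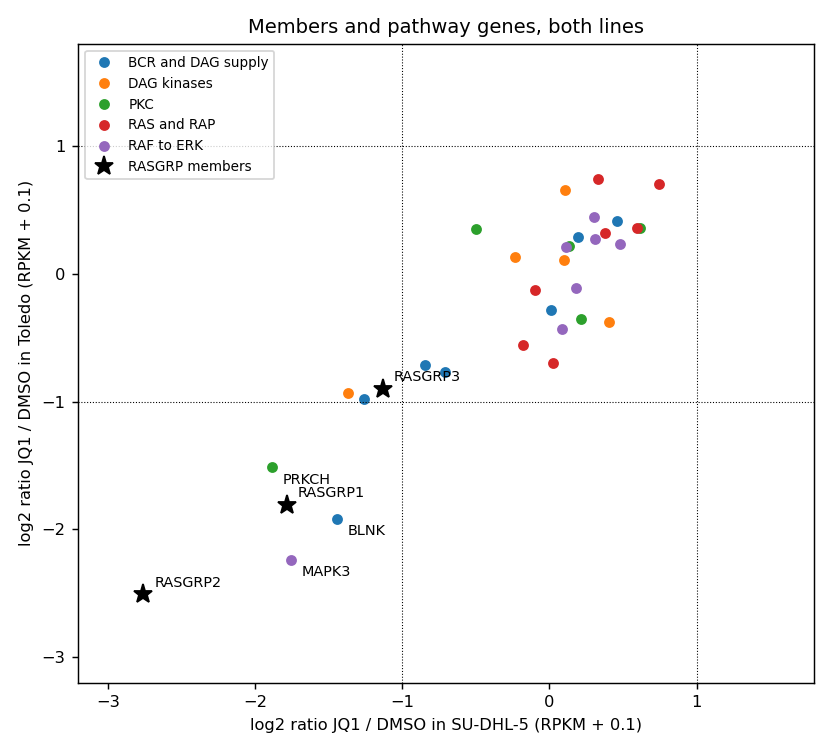
Gene-level log2 ratio of JQ1 to DMSO, after adding 0.1 RPKM, in SU-DHL-5 (x axis) and Toledo (y axis) for the 31 listed pathway genes that passed the level filter in both lines, coloured by group, with RASGRP1, RASGRP2 and RASGRP3 as stars; dotted lines mark 0.5-fold and 2-fold. RASGRP1 and RASGRP2 lie past the 0.5-fold limit in both lines together with BLNK, MAPK3 and PRKCH, and RASGRP3 lies at −1.13 and −0.90.

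The genes with the profile most like each member over the 4 samples were found among 10244 genes with at least 1 RPKM in some sample, by the root mean square distance between log2 profiles centred on their means. For RASGRP3 they were DENND2D, GPM6A and HAGHL, at distances of 0.0681, 0.0776 and 0.134. For RASGRP1 they were UROD, PICK1 and FLT3LG, at 0.117, 0.155 and 0.177. For RASGRP2 they were IFITM1, CD48 and SASH3, at 0.265, 0.360 and 0.364. The profiles were taken after adding 0.1 RPKM, which shrinks the changes of low values. In Toledo, GPM6A had 0.113 RPKM with DMSO and 0.0139 with JQ1, and PICK1 had 0.335 and 0.0463. UROD, an enzyme of haem synthesis and the closest to RASGRP1, had 41.1 RPKM with DMSO and 11.9 with JQ1 in SU-DHL-5, against 18.5 and 4.95 in Toledo.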

How the data were processed

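RNA-seq data from 4 samples (SU-DHL-5 and Toledo, each with DMSO or JQ1) were read from the gene and transcript tables, which hold 8 library columns. The deposited RPKM values were made by the authors from paired, trimmed reads on GRCh38. CASAVA 2.0 is named in the submitters' processing notes; the aligner, counter and annotation are not given in the sources used here. The labels give 6 h of treatment and a figure legend of the study 8 h. Region starts were counted from 0, since adding 1 made 41.3% of distinct starts equal a GENCODE v29 transcript start, against 2.23% as deposited.

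Mapped reads were recovered as the total that made single-exon genes whole, and transcript lengths as the smallest whole base count (100 to 40000) that made all 8 values whole, or a multiple of it where only that made transcript reads sum to gene reads (RASGRP1_1, 2 times; RASGRF1_4, 3 times). Reads can mean read pairs, which the files do not say. Ratios used log2(RPKM + 0.1), which understates changes of low values. Transcripts were described singly at 10% or more of a gene's RPKM in any sample; listed pathway genes were named when past 0.5 or 2 in both lines. Libraries of a sample were averaged and counted as 1. The members and lists were chosen with earlier results of these data known. Some listed genes are not reported here. Of 25 transcripts with reads, 17 matched a GENCODE v29 transcript by ends and length. The outer ends were allowed to shift, and some transcripts matched only with 1 exon left out, added or shortened. Alternatives comprised other pseudocounts, filters, scaling, single libraries, summed transcripts and shares of reads. Scripts were tested on simulated data with scipy 1.17.1, pandas 2.3.3 and numpy 2.4.6 in Python 3.11.15.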

Additional observations from a re-analysis of the deposited data

How the results depend on the processing

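No paired analysis was possible because a condition comprised a single sample and no test was run. Of the alternatives to the counts, a pseudocount of 1 RPKM gave 3 lower member genes in SU-DHL-5 instead of 4, beside 3.16% of all genes. In Toledo it gave 1 instead of 2, beside 4.02%. It gave 4 lower transcripts in SU-DHL-5 instead of 12, beside 3.14% of all transcripts, and 3 in Toledo instead of 7, beside 3.71%. The filter at 1 RPKM gave the same 4 and 3 lower transcripts, beside 10.7% and 12.6%. It gave 3 lower member genes in SU-DHL-5, beside 6.28%, and 2 in Toledo, beside 8.01%. The pseudocount of 1 RPKM brought the gene log2 ratios nearer 0, by construction. RASGRP1 came to −1.31 and −0.93 in SU-DHL-5 and Toledo, and RASGRP2 to −0.85 and −1.84. RASGRF1 came to −1.62 in SU-DHL-5 and RASGRP3 to −0.69 in Toledo. From single libraries, RASGRP3 in Toledo ranged from −1.11 to −0.70, and with library 2 alone 3 member genes were lower there, beside 12.8% of all genes. No called ratio changed sign under the alternatives run. Shares of reads in place of RPKM gave RASGRP2_4 in Toledo 68.2% of DMSO and 66.6% of the fall, RASGRP3_4 in SU-DHL-5 78.8% and 76.7%, and RASGRF1_5 in SU-DHL-5 78.3% of DMSO. Pooling RASGRP3_2 with RASGRP3_4, chosen after seeing the data, gave 77.2% of DMSO in SU-DHL-5, and 92.9% of DMSO and 109% of the fall in Toledo. Of 115 alternatives to the transcript log2 ratios, 30 moved by more than their counting error or, without one, the spread of the DMSO libraries, such as RASGRF1_5 in SU-DHL-5 from −3.43 to −1.92 with a pseudocount of 1 RPKM. By library, RASGRP1_3 in Toledo ranged from −2.03 to −0.72, and RASGRP3_3 in SU-DHL-5 gave −0.97 in library 2. Depth limits RASGRP2 in SU-DHL-5, with 6 reads left with JQ1, RASGRF1 and RASGRF2 in Toledo, and any isoform with few reads.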
